A study of Homo sapiens with 42 samples.

Results

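Combined treatments of HL-60 leukemia cells were compared: the dual EZH2 and G9A/GLP inhibitor HKMTI-1-005 with all-trans-retinoic acid (ATRA) against the EZH2 inhibitor GSK-343 with ATRA. The arrays were chosen by their treatment label, 3 in each group, which makes 6 of the 42 arrays of the series. HKMTI-1-005 + ATRA means 2.5 µM HKMTI-1-005 with 0.1 µM ATRA for 72 h, and GSK-343 + ATRA means 10 µM GSK-343 with 0.1 µM ATRA for 72 h. The doses of the inhibitors differed by design of the study, so that compound and dose cannot be told apart in any difference given here. Another 4 groups of 3 arrays set the scale: untreated cells, ATRA alone, and each inhibitor alone at the same dose. The other 24 arrays of the series came from a knockdown experiment in the same line: 12 with an EZH2 shRNA, 6 with a non-targeting shRNA and 6 untransduced. All groups were cultures of HL-60, an established line of human acute myeloid leukemia cells with amplified MYC, so that no other genetic background was sampled. RNA was hybridised to Affymetrix Human Gene 1.0 ST arrays, and the values were deposited as log2 levels. The study describes the arrays as biological triplicates, and the labels do not say how the cultures were separated. The limma p-values, standard errors and intervals below rest on the spread between replicate arrays, pooled over all groups of the 42 arrays. They can therefore be wider or narrower than the 6 compared arrays alone would give.

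EZH2 is the catalytic subunit of the Polycomb complex PRC2, which places methyl groups on lysine 27 of histone H3, a mark of silenced genes. G9A (EHMT2) and its partner GLP (EHMT1) methylate lysine 9 of histone H3, another mark of silencing. GSK-343 competes with the methyl donor S-adenosylmethionine in EZH2, whereas HKMTI-1-005 was made from a G9A inhibitor and competes with the histone substrate. ATRA binds the retinoic acid receptors and drives HL-60 cells from the promyelocyte-like state toward granulocytes.

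Array medians over all probe sets lay between 5.36 and 5.42 in the 6 arrays. The cells carried the markers of HL-60. Of 13 measured markers of the line, 12 had a level at or above the limit used for calls (6.88), with MPO, ELANE and MYC among them. Of the markers of other cell types, 1 of 20 erythroid and megakaryocyte genes (the transferrin receptor TFRC), 0 of 13 eosinophil, basophil and mast cell genes and 1 of 26 lymphoid genes (CD4) reached that limit, as did 11 of 34 monocyte and macrophage genes. The mean level over the lymphoid markers was 5.0 to 5.05 on the GSK-343 + ATRA arrays and 4.93 to 4.99 on the HKMTI-1-005 + ATRA arrays. That over the eosinophil, basophil and mast cell markers was 4.75 to 4.79 and 4.63 to 4.64, and that over the monocyte and macrophage genes 6.11 to 6.22 and 6.29 to 6.43. In these 3 lists the groups did not overlap, while the erythroid and megakaryocyte means did, at 5.0 to 5.11 and 5.01 to 5.08. Apart from the monocyte and macrophage list, all these means lay below the array medians over all probe sets. No conclusion about other cell types is drawn from gaps at such low levels. The part of other cell types in the differences below was not tested. In bulk RNA, a change in the share of a cell type and a change in RNA per cell cannot be told apart.

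The arrays numbered 3 stood apart in both groups. Across the 7367 genes that could be called, GSK-343 + ATRA replicates 1 and 2 correlated at r = 0.99, whereas replicate 3 correlated with them at 0.969 and 0.979 and with the 3 HKMTI-1-005 + ATRA arrays at 0.979 to 0.981. HKMTI-1-005 + ATRA replicate 3 correlated at 0.983 with GSK-343 + ATRA replicate 2, close to its 0.984 and 0.986 with its own group. These are correlations across genes, which are not independent replicates. Among the genes called below, GSK-343 + ATRA replicate 3 was the array of its group nearest to the other group in 26 of 33 higher and 27 of 46 lower genes. HKMTI-1-005 + ATRA replicate 3 was nearest in 28 and 32. Counts are therefore given with each array left out.

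A gene was called when 3 conditions held: a limma adjusted p no higher than 0.05, a fold of 1.3 or above, and a mean over all 42 arrays in the top 40% of genes. In these terms 33 genes (0.448% of 7367) were higher and 46 (0.624%) were lower with HKMTI-1-005 + ATRA than with GSK-343 + ATRA, at folds of 1.36 to 3.13 and 1.33 to 3.13. The arrays of the groups did not overlap for 76 of the 79, against 19.0% of all 7367 genes; FAM3C, IRAG2 and SCD were the exceptions. An unadjusted p under 0.05 was reached by 918 of the 7367 genes, 504 higher and 414 lower. The median log2 difference over the 7367 genes was 0.04.

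The counts depended on single arrays. Without GSK-343 + ATRA replicate 1, 3 genes were called higher and 10 lower, and without replicate 2, 12 and 21. Without HKMTI-1-005 + ATRA replicate 1 the counts were 10 and 15, and without replicate 2 they were 6 and 6. Leaving out a replicate 3 array gave more genes: 118 higher and 67 lower without that of GSK-343 + ATRA, 52 and 76 without that of HKMTI-1-005 + ATRA. Whichever array was left out, 6 genes were called: ENTPD1, GNAQ and EPG5 higher, and RHOU, ZNF117 and PLEKHA5 lower. P2RY13, SCARB2 and ZNF253 were called with none of the 6 left-out fits. GNAQ, EPG5 and PLEKHA5 were named for this pattern after their values were seen. GNAQ, a G protein subunit that couples receptors to phospholipase C, differed by 0.57 (standard error 0.09, limma adjusted p = 0.000192). EPG5, a tether of autophagosomes, differed by 0.67 and PLEKHA5, a lipid-binding protein, by -0.69.

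The transcripts of the enzymes that the compounds inhibit were not called. EZH2 read 9.71, 9.61 and 9.77 on the GSK-343 + ATRA arrays and 9.86, 9.82 and 9.65 on the HKMTI-1-005 + ATRA arrays, with a difference of 0.08 (95% interval -0.24 to 0.39). EHMT2, which encodes G9A, differed by 0.32 (-0.14 to 0.77), EHMT1 by 0.23 (-0.06 to 0.52) and EZH1, the other methyltransferase of PRC2, by 0.21 (-0.08 to 0.5). These intervals are not adjusted over genes and leave room for differences of these sizes. Of 13 PRC2 subunits and partners in the top 40% of genes 0 were called, and of 20 genes of histone H3 lysine 9 methylation and heterochromatin 0 were called.

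Of 9 genes that the study itself followed, chosen with these samples in hand, 0 were called. ITGAM, which encodes the maturation marker CD11b, read 7.41, 7.45 and 6.76 on the GSK-343 + ATRA arrays and 8.14, 8.05 and 8.0 on the HKMTI-1-005 + ATRA arrays. These arrays did not overlap, but the difference of 0.85 missed the threshold (95% interval 0.28 to 1.43, limma adjusted p = 0.18). GPR65, a proton-sensing receptor, stood 1.03 higher in the same way (interval 0.42 to 1.64, adjusted p = 0.101), with all 3 HKMTI-1-005 + ATRA arrays above all 3 others. CD36, a scavenger receptor, read 10.64, 10.49 and 10.08 on the GSK-343 + ATRA arrays and 10.5, 10.23 and 10.83 on the HKMTI-1-005 + ATRA arrays, and the groups overlapped (difference 0.11, interval -0.69 to 0.92). SLAMF7, a surface receptor of leukocytes, passed the test at 1.03 (adjusted p = 0.00493) but its mean lay below the top 40%. GATA2 and MLLT3, both regulators of progenitors, lay below that limit too, at -0.6 (interval -1.0 to -0.21) and 0.52 (0.17 to 0.87), and missed the test as well (adjusted p = 0.16 and 0.173). For LEF1, a WNT effector, the difference was -0.31 (-0.7 to 0.08), for the lysine methyltransferase SMYD2 -0.22 (-0.49 to 0.04) and for the IgE receptor FCER2 -0.41 (-1.62 to 0.79).

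Among the higher genes, a pair belonged to extracellular nucleotide signaling. ENTPD1 encodes CD39, the surface enzyme that degrades extracellular ATP and ADP. It read 7.12, 7.67 and 7.62 on the GSK-343 + ATRA arrays and 9.25, 9.28 and 8.66 on the HKMTI-1-005 + ATRA arrays. All HKMTI-1-005 + ATRA arrays lay above all GSK-343 + ATRA arrays (difference 1.59, standard error 0.25, limma adjusted p = 0.000452). P2RY13 encodes a receptor for ADP and read 7.5, 8.42 and 7.89 on the GSK-343 + ATRA arrays and 9.85, 9.54 and 9.37 on the HKMTI-1-005 + ATRA arrays. Its groups did not overlap either (1.65, standard error 0.42, adjusted p = 0.0436), and the call ended with any array left out. The mean of P2RY13 was 5.5 in untreated cells and 8.87 with ATRA alone, so that the inhibitor groups lay on both sides of the ATRA value. Of the other 16 measured ectonucleotidase and adenosine genes 0 were called, but only 7 of them were in the top 40%. NT5E, which makes adenosine from AMP, stood at -0.37. Of 11 measured P2 receptors, 6 were in the top 40%. The pair made 1 of 8 (12.5%) and 1 of 6 (16.7%) in the top 40% of these lists, against 0.448% of all 7367 genes, and lists this short give coarse shares. P2RY1, another ADP receptor, was lower at -0.41 (limma adjusted p = 0.00798) with a mean below the level limit.

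Other higher genes have known roles in myeloid cells, but the fixed list of myeloid maturation genes did not move as a whole. Of its 43 measured members, 28 were in the top 40% and 0 of these were called, 22 stood above 0 and 21 below, and the median was 0.0018. MS4A6A, a membrane protein gene of monocytes and macrophages, read 7.11, 7.33 and 7.14 on the GSK-343 + ATRA arrays and 8.44, 8.5 and 8.59 on the HKMTI-1-005 + ATRA arrays, a difference of 1.32 with a within-group SD of 0.12 and 0.08. The pooled standard error was larger, 0.29 (limma adjusted p = 0.014), and MS4A6A was called in 3 of the 6 left-out fits. Without ATRA, MS4A6A differed by 1.08 between the compounds and was not called. Its neighbour in the family MS4A4A, found on macrophages, differed by 1.05 (limma adjusted p = 0.0214) below the level limit, while MS4A3, a gene of granulocyte precursors, stood at -0.68 and was not called. CD1D, which presents lipid antigens, read 8.35, 8.5 and 8.37 on the GSK-343 + ATRA arrays and 9.44, 9.47 and 9.16 on the HKMTI-1-005 + ATRA arrays (0.96, standard error 0.19, adjusted p = 0.00706). The ATRA-only mean of CD1D was 8.54, near GSK-343 + ATRA, so that the HKMTI-1-005 + ATRA arrays were the high ones. SYK, the tyrosine kinase downstream of Fc receptors and integrins, read 8.35, 8.75 and 9.19 on the GSK-343 + ATRA arrays and 9.53, 9.52 and 9.32 on the HKMTI-1-005 + ATRA arrays, with GSK-343 + ATRA replicate 3 closest to the other group (0.69, adjusted p = 0.0251). TASL, an adaptor that links the lysosomal Toll-like receptors to IRF5, differed by 1.1 (adjusted p = 0.048); its GSK-343 + ATRA arrays spread from 8.05 to 9.34. CTSS, a lysosomal protease of antigen processing, differed by 0.63 (adjusted p = 0.0136), with 9.83, 9.81 and 9.91 against 10.52, 10.55 and 10.37. Of the 6 left-out fits, CD1D was called in 3, SYK and CTSS in 2 and TASL in 1.

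Below the level limit the same comparison held larger differences. With no limit on the mean, 178 of 18417 genes (0.966%) passed, 71 higher (0.386%) and 107 lower (0.581%), and 99 of these had a mean below the top 40%. A gene that is on in only a few of the 42 arrays falls below that limit whatever its level there. The genes of this set given here were chosen after their values were seen. VSIG4, a complement receptor of macrophages, read 6.38, 6.23 and 6.05 on the GSK-343 + ATRA arrays and 9.0, 8.4 and 9.04 on the HKMTI-1-005 + ATRA arrays. ATRA alone had a mean of 6.68 and untreated cells of 4.64, both below all 3 HKMTI-1-005 + ATRA arrays. The difference of 2.59 (standard error 0.22, limma adjusted p = 1.39e-08) passed with each array left out, as did that of CD180, 2.46 (standard error 0.43, adjusted p = 0.00186). CD180, a Toll-like receptor relative of B cells and myeloid cells, read 5.36, 5.62 and 6.01 on the GSK-343 + ATRA arrays and 8.43, 8.07 and 7.87 on the HKMTI-1-005 + ATRA arrays. TREM2, a lipid receptor of macrophages, differed by 0.58, CD84 of the SLAM receptors by 0.9, and the Toll-like receptors TLR7 and TLR1 by 0.84 and 0.76. LY96, which encodes the TLR4 partner MD-2, differed by 1.06 and CLEC5A, a myeloid lectin receptor, by 1.24. Each of these 6 had all HKMTI-1-005 + ATRA arrays above all GSK-343 + ATRA arrays. The CLEC5A mean was 6.53 with HKMTI-1-005 + ATRA, 6.36 in untreated cells, 5.5 with ATRA alone and 7.98 with HKMTI-1-005 alone. Between the compounds without ATRA, CLEC5A differed by 2.14 (limma adjusted p = 0.000301). With single arrays left out, CD84 passed in 6 of 6 fits, TREM2 in 5, TLR7 and TLR1 in 3, LY96 in 2 and CLEC5A in 1. Not every gene of such cells moved this way. CD86, a costimulatory molecule of the same list of monocyte and macrophage genes, stood at -1.55 (adjusted p = 0.257), its groups overlapping, and CTSL, a lysosomal protease, was called lower at -0.8. Over that list of 34 measured genes, 10 were in the top 40%, 1 was called higher and 1 lower (10.0% each, against 0.448% and 0.624% of all 7367 genes), and 2 more were higher below the limit; the median difference was 0.03, against -0.01 over all 18417 genes.

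Lipid metabolism contributed 2 called genes, both higher, of 30 sterol and fatty acid synthesis genes in the top 40% (6.67%, against 0.448% of all 7367 genes). SCD, the desaturase that makes monounsaturated fatty acids, read 9.69, 10.08 and 10.78 on the GSK-343 + ATRA arrays and 11.47, 11.51 and 10.72 on the HKMTI-1-005 + ATRA arrays. HKMTI-1-005 + ATRA replicate 3 lay below GSK-343 + ATRA replicate 3, so that the groups overlapped (1.05, standard error 0.26, limma adjusted p = 0.0341). MID1IP1, which stimulates acetyl-CoA carboxylase, read 8.65, 8.46 and 8.84 on the GSK-343 + ATRA arrays and 9.37, 9.39 and 9.34 on the HKMTI-1-005 + ATRA arrays without overlap (0.72, adjusted p = 0.0089). Across 36 measured genes of sterol and fatty acid synthesis, 30 had a difference above 0 and the median was 0.32, which ranged from 0.22 to 0.44 with single arrays left out. Within the top 40%, 26 of the 30 list members stood above 0, against 4298 of all 7367 genes. The desaturases FADS1 and FADS2 stood at 1.09 and 1.02, and SQLE, an enzyme of sterol synthesis, at 0.78; none of these was called, and their groups overlapped. ELOVL6, which lengthens fatty acids, went the other way at -0.77 without a call. For SCD, ATRA alone had a mean of 10.07 and untreated cells of 11.46, and the HKMTI-1-005 + ATRA mean was 11.23. SCD was called in 2 and MID1IP1 in 3 of the 6 left-out fits.

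The other large rises were of mixed function. MYOF, a membrane-repair protein, read 7.43, 7.72 and 7.82 on the GSK-343 + ATRA arrays and 9.14, 9.17 and 8.64 on the HKMTI-1-005 + ATRA arrays (1.33, limma adjusted p = 0.00456). RXFP1, the relaxin receptor, differed by 0.93, S100A4, a calcium-binding protein, by 0.94 and CDC42EP3, an effector of the GTPase CDC42, by 0.92. GPX1, which reduces peroxides with glutathione, read 10.52, 10.71 and 11.13 on the GSK-343 + ATRA arrays and 11.51, 11.65 and 11.33 on the HKMTI-1-005 + ATRA arrays (0.71, adjusted p = 0.0214). NUDT7, a peroxisomal CoA hydrolase, differed by 1.1. BRI3BP differed by 0.98 and HDHD5 by 0.78, and both were called in 5 of 6 left-out fits. MYOF and RXFP1 were called in 4 of them, and S100A4, CDC42EP3, GPX1 and NUDT7 in 2. Among the 33 higher genes, the arrays of the groups overlapped for SCD and IRAG2 only.

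The largest falls were of mixed function. SLC16A10, a carrier of aromatic amino acids, read 10.42, 9.32 and 8.25 on the GSK-343 + ATRA arrays and 7.55, 7.44 and 8.07 on the HKMTI-1-005 + ATRA arrays. Its GSK-343 + ATRA arrays spread over more than 2 log2 units, with replicate 3 close to the other group (-1.64, standard error 0.37, limma adjusted p = 0.017). CD69, an activation marker of leukocytes, read 8.29, 8.52 and 7.31 on the GSK-343 + ATRA arrays and 6.4, 6.24 and 6.69 on the HKMTI-1-005 + ATRA arrays and differed by -1.6 (adjusted p = 0.032). RHOU, a GTPase that acts on the cytoskeleton, read 9.51, 9.52 and 9.26 on the GSK-343 + ATRA arrays and 8.02, 8.12 and 8.33 on the HKMTI-1-005 + ATRA arrays, and was called with each array left out (-1.27, standard error 0.18, adjusted p = 9.31e-05). The mean of RHOU was 8.05 in untreated cells, 9.31 with ATRA alone and 8.16 with HKMTI-1-005 + ATRA. ANXA3, an annexin of neutrophil granule membranes, had means of 7.16 in untreated cells and 8.39 with ATRA alone, and read 8.28, 8.69 and 8.27 with GSK-343 + ATRA and 6.5, 7.02 and 7.16 with HKMTI-1-005 + ATRA, with a mean of 6.89 in the last (-1.52, adjusted p = 0.0105). FKBP9, a prolyl isomerase of the endoplasmic reticulum, differed by -1.46 and HCST, the signaling adaptor DAP10, by -1.35. ANXA3 was called in 4 of the 6 left-out fits, and SLC16A10, CD69, FKBP9 and HCST in 2.

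NOTCH pathway genes fell as a ligand and a receptor. JAG1, a ligand, read 8.57, 8.42 and 8.06 on the GSK-343 + ATRA arrays and 6.54, 6.71 and 7.63 on the HKMTI-1-005 + ATRA arrays, and NOTCH1, a receptor, read 7.46, 7.61 and 7.32 on the GSK-343 + ATRA arrays and 6.71, 6.44 and 7.13 on the HKMTI-1-005 + ATRA arrays. In both, HKMTI-1-005 + ATRA replicate 3 lay nearest to the other group. The differences were -1.39 (standard error 0.27, limma adjusted p = 0.00462) and -0.7 (standard error 0.18, adjusted p = 0.047). Of 28 measured NOTCH pathway genes, 10 were in the top 40%, 2 were called lower (20.0%, against 0.624% of all 7367 genes) and 0 higher, and the median was -0.06. A list of 10 gives a coarse share. HES1 and HEYL, targets of the pathway, stood at 0.013 and 0.07, and NRARP, a feedback inhibitor, at -0.35 (limma adjusted p = 0.125), none of them called. Of the G1 cyclins and their inhibitors, 14 in the top 40%, CCND1, which encodes cyclin D1, was called lower (-0.63), which makes 7.14%, and 0 were higher. NOTCH1 and CCND1 were each called in 2 of the 6 left-out fits.

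A granule gene and several genes of other kinds were also among the falls. CST7, an inhibitor of cysteine proteases, read 9.27, 8.99 and 9.07 on the GSK-343 + ATRA arrays and 7.76, 7.73 and 8.37 on the HKMTI-1-005 + ATRA arrays (-1.16, limma adjusted p = 0.012); both inhibitor groups lay below the untreated mean of 10.05. It was the called member of 13 primary granule genes in the top 40% (7.69%, against 0.624% of all 7367 genes), and of 33 inflammatory and defense genes in the top 40% 0 were called. BPI, a bactericidal granule protein, stood at -1.23, CTSG, a granule protease, at -1.07 and MS4A3 at -0.68; the arrays of each did not overlap but none was called. SERPINB10, a protease inhibitor of myeloid cells, went the other way at 1.15 without a call, and ELANE at -0.08 and LYZ at -0.08 overlapped. IL4R, a subunit of the interleukin-4 receptor, differed by -0.97, SATB1, a chromatin organizer known from T cells, by -0.95, and PLSCR1, an interferon-induced phospholipid scramblase, by -0.85. PDLIM7, a cytoskeletal adaptor, differed by -0.76 and CPXM1, a carboxypeptidase relative, by -0.75. CST7 and CPXM1 were called in 3 of the 6 left-out fits, IL4R and PLSCR1 in 2, and SATB1 and PDLIM7 in 1. SCARB2, a lysosomal membrane protein, read 8.15, 8.07 and 8.17 on the GSK-343 + ATRA arrays and 7.56, 7.63 and 7.65 on the HKMTI-1-005 + ATRA arrays (-0.52), so that of 36 lysosomal genes in the top 40%, CTSS was called higher (2.78%, against 0.448% of all genes) and CTSL and SCARB2 lower (5.56%, against 0.624%), with a median of 0.15 over the 46 measured.

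Zinc finger genes of the ZNF series supplied 8 of the 46 lower genes and 0 of the 33 higher. Many proteins of this series bind DNA and recruit KAP1 and H3K9 methyltransferases to repeats, and many of their genes lie in clusters on chromosome 19. Of 480 measured ZNF genes 167 were in the top 40%, which makes 4.79% of them called lower, against 0.624% of all 7367 genes. ZNF117 read 7.68, 7.77 and 7.54 on the GSK-343 + ATRA arrays and 7.07, 6.95 and 6.79 on the HKMTI-1-005 + ATRA arrays, and ZNF75A read 9.03, 8.67 and 8.54 on the GSK-343 + ATRA arrays and 8.08, 7.77 and 7.86 on the HKMTI-1-005 + ATRA arrays. Every array of HKMTI-1-005 + ATRA lay below every array of GSK-343 + ATRA in both (-0.73, limma adjusted p = 0.000922, and -0.85, adjusted p = 0.00441). ZNF264 differed by -0.73 and ZNF136 by -0.56, and ZNF253, ZNF561, ZNF626 and ZNF254 by -0.55, -0.52, -0.49 and -0.41. Of the 8, 6 lie on chromosome 19. The median over 233 measured ZNF genes on that chromosome was -0.1, with 182 below 0, and the median over 247 on other chromosomes was -0.04, with 155 below 0; over all genes it was -0.01. ERV3-1, a gene of retroviral origin that shares its locus with ZNF117, was lower too, at -1.33 (adjusted p = 0.00937) with a mean below the level limit. Whether probes read both genes was not tested. ZNF genes are a family of close copies, so that probe sets may read more than 1 member.

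The promoters of ZNF626 and ZNF254 are shown because these called genes of chromosome 19 are close copies also upstream of the start. The 250 bases before the start, from RefSeq on GRCh38.p14, are written 5′ to 3′ along the gene, with each CCAAT motif or its reverse complement ATTGG in capitals.
ZNF254 (chr19:24086937-24087186, + strand): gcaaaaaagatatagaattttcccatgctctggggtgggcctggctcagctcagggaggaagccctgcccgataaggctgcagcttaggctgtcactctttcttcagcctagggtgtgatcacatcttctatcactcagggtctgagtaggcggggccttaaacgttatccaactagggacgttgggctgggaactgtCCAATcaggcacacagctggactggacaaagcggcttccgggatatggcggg
ZNF626 (chr19:20661572-20661821, - strand): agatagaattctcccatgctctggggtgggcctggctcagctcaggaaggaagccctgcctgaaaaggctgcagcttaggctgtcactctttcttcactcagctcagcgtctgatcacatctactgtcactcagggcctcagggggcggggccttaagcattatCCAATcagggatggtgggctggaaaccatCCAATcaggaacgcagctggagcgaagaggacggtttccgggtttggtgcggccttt
Aligned end to end they shared 205 of 260 positions (78.8%), whereas the other 20 pairs among the 7 ZNF promoters found shared 45.6% to 54.7%. CCAAT or ATTGG occurred in 4 of those 7 promoters, in 181 of 393 promoters of measured ZNF genes (46.1%) and in 34.4% of 14239 promoters of all measured genes. Among the called genes it stood in 12 of 28 promoters of higher and 15 of 37 of lower genes, against 36.5% of 6115 promoters of genes in the top 40%. AGGTCA or TGACCT, the core bound by retinoic acid receptors, stood in 4 of the 28 and 2 of the 37, against 7.75% of the top 40% and 9.69% of all. GAGGAA or TTCCTC, the core bound by PU.1, stood in 7 and 11, against 23.9% and 23.6%. A match describes letters in this window only.

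Larger gene lists moved by small amounts. Over 45 measured genes of MYC activity and ribosome biogenesis, 43 stood above 0 with a median of 0.29, but 0 were called, and leaving out single arrays moved the median between 0.2 and 0.47. RCL1, an enzyme of ribosomal RNA processing, had the clearest difference of these, 0.57 (limma adjusted p = 0.0705). Over 41 genes of oxidative phosphorylation, 39 stood above 0 with a median of 0.17 and 0 called. Of all 7367 genes in the top 40%, 4298 stood above 0. Medians were -0.13 over 50 inflammatory and defense genes, -0.05 over 38 WNT genes and -0.09 over 18 genes of secondary and tertiary granules, with 0 called in each. Only 33, 11 and 5 of these were in the top 40% and could be called. Within the inflammatory list CCL20, a chemokine, stood at -1.25 and IL1B, the interleukin-1 beta gene, at -1.11, in both of which the groups overlapped. The 192 small nucleolar and Cajal body RNA genes, which follow the make-up of the RNA, had a mean level of 7.76, 7.6 and 7.25 on the GSK-343 + ATRA arrays and 7.52, 7.58 and 7.82 on the HKMTI-1-005 + ATRA arrays. These overlapped, and their part in the other differences was not tested.

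Falls below the level limit were of mixed function, and those given were again named after their values were seen. TGM2, the transglutaminase gene that retinoic acid induces in leukemia cells, read 7.58, 6.49 and 6.13 on the GSK-343 + ATRA arrays and 4.99, 4.53 and 5.4 on the HKMTI-1-005 + ATRA arrays. The ATRA-only mean was 6.28 and the untreated mean 4.39, so that HKMTI-1-005 + ATRA lay between these (-1.76, standard error 0.32, limma adjusted p = 0.00245). STAT4, a transcription factor of cytokine signaling, read 7.23, 5.43 and 5.33 on the GSK-343 + ATRA arrays and 4.34, 4.44 and 4.69 on the HKMTI-1-005 + ATRA arrays. GSK-343 + ATRA replicate 1 lay well above its group (-1.51, adjusted p = 0.00166), and the gene passed with each array left out. CD82, a tetraspanin, differed by -1.24, CKAP4, a membrane protein of the endoplasmic reticulum, by -1.3 and FZD7, a WNT receptor, by -0.86, and each passed with every array left out. The immediate-early factors NR4A2, NR4A3 and EGR3 differed by -0.91, -0.98 and -0.64, though 3, 4 and 2 of the 6 left-out fits kept them. Of 23 measured retinoic acid targets 9 were in the top 40%, and 0 of these were called. TGM2 was the member that passed below the limit, and the median was -0.09.

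As a measure of the ATRA response, genes were taken from arrays outside the comparison. In untransduced cells of the knockdown experiment, which share no array with the inhibitor experiment, 98 genes (1.33% of 7367) were higher and 59 (0.801%) lower with ATRA, a list made after the data had been seen. The mean level of the raised genes minus that of the lowered genes was 1.53, 1.55 and 1.32 log2 units with GSK-343 + ATRA and 1.73, 1.63 and 1.53 with HKMTI-1-005 + ATRA. With ATRA alone it was 1.74, 1.71 and 1.46, and in untreated cells -0.62, -0.68 and -0.6. The arrays of the groups with ATRA overlapped, and every array with ATRA lay above every untreated array. Of the 98 raised genes 4 were called higher with HKMTI-1-005 + ATRA than with GSK-343 + ATRA (4.08%, against 0.448% of 7367) and 0 lower, with a median difference of 0.06. Of the 59 lowered genes 1 was called lower (1.69%, against 0.624%) and 0 higher, with a median of -0.08. A gene with a small pooled spread is easier to call in both comparisons. These shares are therefore in part built in, and no conclusion is drawn from them.

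Set against ATRA alone, which serves both groups as control, the values lay as follows. For 29 of the 33 higher genes and 34 of the 46 lower genes the mean with ATRA alone fell between the inhibitor groups. Since these genes were selected for a gap between those groups, a value inside the gap is in part built in, and no conclusion is drawn from these counts. Against ATRA alone, 56 of 7367 genes (0.76%) were called with HKMTI-1-005 + ATRA and 1 (0.0136%) with GSK-343 + ATRA. ENTPD1 stood at 1.22 with HKMTI-1-005 + ATRA and -0.37 with GSK-343 + ATRA, MS4A6A at 1.33 and 0.0096, and MID1IP1 at 0.79 and 0.08. Among the falls RHOU stood at -1.16 and 0.12, ANXA3 at -1.5 and 0.03, and ZNF117 at -0.99 and -0.26. In each of these the first value was called by limma and the second was not. P2RY13, at 0.71 and -0.93, and CD69, at -1.13 and 0.46, lay on opposite sides of 0, and none of these values was called. VSIG4 stood at 2.13 (limma adjusted p = 5.38e-07) and -0.45.

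The same 2 compounds had also been used without ATRA, on arrays that the comparison with ATRA does not share. HKMTI-1-005 against GSK-343 gave 29 called genes there (0.394% of 7367), 3 higher (0.0407%) and 26 lower (0.353%). Of the 79 genes called with ATRA, 11 were called without it in the same direction, which makes 13.9% of the list with ATRA and 37.9% of the list without. These were ENTPD1, higher, and CHFR, KIF21A, VAV3, PCSK6 and the zinc finger genes ZNF626, ZNF561, ZNF253, ZNF136, ZNF117 and ZNF75A, lower. ZNF75A stood at -0.98 without ATRA and -0.85 with it, ZNF136 at -0.78 and -0.56, and ZNF117 at -0.63 and -0.73. Without regard to calls, 77 of the 79 had the same sign without ATRA (97.5%), against 63.4% of the 7367 genes. SCD and IL4R were the exceptions, at -0.017 and 0.15 without ATRA. The difference was smaller without ATRA for 71 of the 79, with a median ratio of 0.436. Since these genes were selected by their size with ATRA, a smaller value elsewhere is built into that ratio.

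Whether ATRA changed the difference between the compounds was tested directly. With the difference with ATRA minus that without it, limma called 0 of 7367 genes, 283 of which had an unadjusted p under 0.05, and the lowest adjusted p among the 79 was 0.349. CD1D had a difference of 0.96 with ATRA and 0.0035 without (standard error 0.19), an excess of 0.95 (adjusted p = 0.629). MID1IP1 showed an excess of 0.69 (adjusted p = 0.771), SCD of 1.07 and IL4R of -1.12 (adjusted p = 0.629). A call with ATRA and none without it does not show that a difference depended on ATRA. Without HKMTI-1-005 + ATRA replicate 3, or without GSK-343 + ATRA replicate 3, 1 gene was called in this test.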

How the data were processed

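The authors normalized the arrays by GC-RMA with Partek software, which they also used to remove batch and date effects. The deposited values are log2 levels of 33297 probe sets on 42 arrays. Arrays have no read depth; their number sets the precision. That they are log2 was read from GC-RMA and their range (median 5.40). No batch term was fitted, the batches being unnamed in the labels and methods. Of the probe sets, 19460 carried 1 gene symbol, and the brightest of each gene was kept (18417 genes). Group means of all 42 arrays were fitted with limma 3.58.1 in R 4.3.3 (28 residual degrees of freedom). Adjustment was by the Benjamini-Hochberg method over all genes. The groups, the 35 hand-written gene lists and the tests were chosen with earlier results of these data known. Genes named were the 15 largest rises and 15 largest falls among called genes without overlap, the genes the study followed, the compounds' targets, and called members of the lists (up to 4, or all where 5 or fewer). All others were named after their values were seen. Other fits, filters, scalings and left-out arrays were tried as alternatives. Promoters came from RefSeq tables and were matched by symbol.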

Additional observations from a re-analysis of the deposited data

How the results depend on the processing

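Of 38 named genes called, 0 changed sign in any of 20 alternative settings. Most of these settings could not show a change. Other filters, thresholds and tests keep the group means, and with groups that do not overlap, leaving out an array cannot turn the sign. Of the 38, 37 were called with quantile normalization, 25 after centring on array medians and 14 with the 6 arrays alone. The 79 calls (33 higher, 46 lower) became 163 (79, 84) with the 18 inhibitor arrays alone, 23 (9, 14) with the 6 arrays alone, 178 (71, 107) with no level filter, 50 (21, 29) at 1.5-fold and 46 (18, 28) after centring on array medians. An unpaired t-test on the 6 arrays gave 290 (138, 152) unadjusted and 0 after Benjamini-Hochberg adjustment. The study names this test for its experiments in general. For its arrays it describes testing by false discovery rate over all conditions, which was not repeated here. Leaving out single arrays gave 12 to 185 calls (3 to 118 higher, 6 to 76 lower) and 0 to 1 for the interaction. Quantile normalization gave 90 calls, 73 of them shared. CD36, which was not called, ranged from -0.047 to 0.26 with single arrays left out and was below 0 without either replicate 3 array. Added after seeing the data were the same settings for the other comparisons. With the 18 arrays, centring or quantile normalization, HKMTI-1-005 + ATRA against ATRA had 125, 18 and 58 calls (56 in the main fit), GSK-343 + ATRA against ATRA 0, 0 and 1 (1), and HKMTI-1-005 against GSK-343 without ATRA 62, 10 and 17 (29). The causes of these changes were not tested.

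Whether replicate numbers pair the samples cannot be decided here, since the authors removed batch and date effects before deposit. Same-numbered arrays of the compared groups correlated at -0.12, 0.12 and -0.44 in their deviations from group means. Over all 45 same-numbered pairs from different groups of the inhibitor experiment, the median was 0.08 (-0.68 to 0.71). It was -0.01 over 90 pairs with other numbers. By mean correlation with arrays of other groups, 9 of 18 arrays were closest to their own number. With a replicate block, 69 genes were called (42 arrays) or 128 (18 arrays; 64 higher), HKMTI-1-005 + ATRA against ATRA gave 40 and 104, GSK-343 + ATRA against ATRA 0 and 0, and HKMTI-1-005 against GSK-343 without ATRA 17 and 51. With 3 arrays per group, small differences may not have been detectable.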
